A study of Homo sapiens with 15 samples.

Results

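Small nucleolar RNAs, their relatives of the Cajal body, a few other short structural RNAs, and the long non-coding genes that carry small nucleolar RNAs in their introns were followed across 15 xenograft tumors. The members were all array probes whose RefSeq accession belongs to a gene named SNORD, SNORA, SCARNA, SNHG, RNU, or RN7S, or to RMRP, RPPH1, or GAS5. There were 52 such probes, for 49 genes, among 34127 probes in all with 19483 named genes. The group was taken up because SNORD3B-1 was among the largest falls in the K264R and K278R tumors against vector. Its values in any contrast with vector, K264R, or K278R tumors are therefore a description and carry no test. Member counts in such contrasts include its probes. The tumors were grown from HCT116, a line of human colon cancer cells, after transient transfection with 1 of 5 constructs, in athymic nude mice, which lack T cells but keep other host cells. The constructs were the empty vector, MOAP-1 (modulator of apoptosis 1, a protein of the cell death machinery), MOAP-1 with 1 lysine changed to arginine at the position that the names K264R and K278R give, and RASSF1A, a tumor suppressor that binds MOAP-1. Each construct had 3 tumors on 3 arrays, and p-values measure the spread between these tumors.

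Small nucleolar RNAs, or snoRNAs, guide the chemical modification and the cleavage of ribosomal RNA in the nucleolus. Box C/D snoRNAs direct the methylation of ribose and box H/ACA snoRNAs the formation of pseudouridine, while the Cajal body RNAs do the same for spliceosomal RNAs. Most human snoRNAs are cut from introns of a host gene, whose exons may code for a protein or, as in the SNHG genes, may be spliced into an RNA that is often degraded in the cytoplasm. A few are independent genes, among them U3, which SNORD3B-1 encodes and which is needed to cleave the precursor of the small ribosomal subunit RNA. RMRP and RPPH1 are the RNAs of RNase MRP and RNase P, RN7SK holds the elongation factor P-TEFb inactive, RN7SL1 is the RNA of the signal recognition particle, and RNU12 is a spliceosomal RNA of the minor spliceosome. RNA polymerase III makes RMRP, RPPH1, RN7SK, and RN7SL1, while RNA polymerase II makes U3, RNU12, and the host genes.

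RefSeq promoters of the assembly GRCh38.p14 were matched for 13 of the 16 host genes. Stretches from 30 bases before to 30 bases after the annotated start are shown for the hosts that the results turn on, because many transcripts of this kind, like ribosomal protein mRNAs, begin within a pyrimidine tract. Capitals mark an unbroken run of at least 6 C or T on the sense strand that reaches to within 10 bases of the start. SNHG5 (chr6:85678704-85678763, minus strand), SNHG7 (chr9:136728155-136728214, minus strand), and SNHG1 (chr11:62855856-62855915, minus strand) held such a run, and GAS5 (chr1:173869016-173869075, minus strand) and SNHG11 (chr20:38446624-38446683, plus strand) held none at this annotated start.
SNHG5: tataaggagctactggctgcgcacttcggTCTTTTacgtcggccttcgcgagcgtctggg
SNHG7: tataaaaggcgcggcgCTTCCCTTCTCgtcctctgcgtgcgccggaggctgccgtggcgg
SNHG1: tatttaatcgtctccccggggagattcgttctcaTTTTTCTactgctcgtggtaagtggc
GAS5: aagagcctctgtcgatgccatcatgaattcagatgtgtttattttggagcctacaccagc
SNHG11: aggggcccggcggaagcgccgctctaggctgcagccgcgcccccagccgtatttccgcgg
Of the 13 host promoters 9 held the run, against 31.9% of all 35116 promoters of this length.

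Levels are log2 processed intensities relative to the 75th percentile of the array, set to 0, and were not compared between probes. A probe was kept if each of the 3 tumors of some construct gave a signal well above background, as 51 of the 52 did, and the probe of SNORA59B, above background on 6 of 15 arrays, was left out. The kept probes were 34 of small RNAs (7 box C/D, 10 box H/ACA, 12 Cajal body, and 5 others) and 17 of host genes. On the arrays 85.1% to 93.1% of spots were well above background and none was saturated. The MOAP1 probe was higher in the MOAP-1 tumors than in vector by 0.86 log2 (SE 0.14, limma adjusted p = 0.000842), and the RASSF1 probe was not higher in the tumors labelled RASSF1A (-0.12, SE 0.10, limma adjusted p = 0.671); whether that probe reads the introduced transcript is not given in the sources used here. The 3 K264R tumors filled 1 slide, the 3 K278R tumors shared a slide with MOAP-1 tumor 2, and the 3 vector tumors shared another with RASSF1A tumor 3. No slide held a vector or RASSF1A tumor together with a MOAP-1 or mutant tumor, and the K264R tumors shared a slide with no other construct, so slide and construct cannot be told apart in comparisons across that line or in any with K264R.

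**Figure D1:**
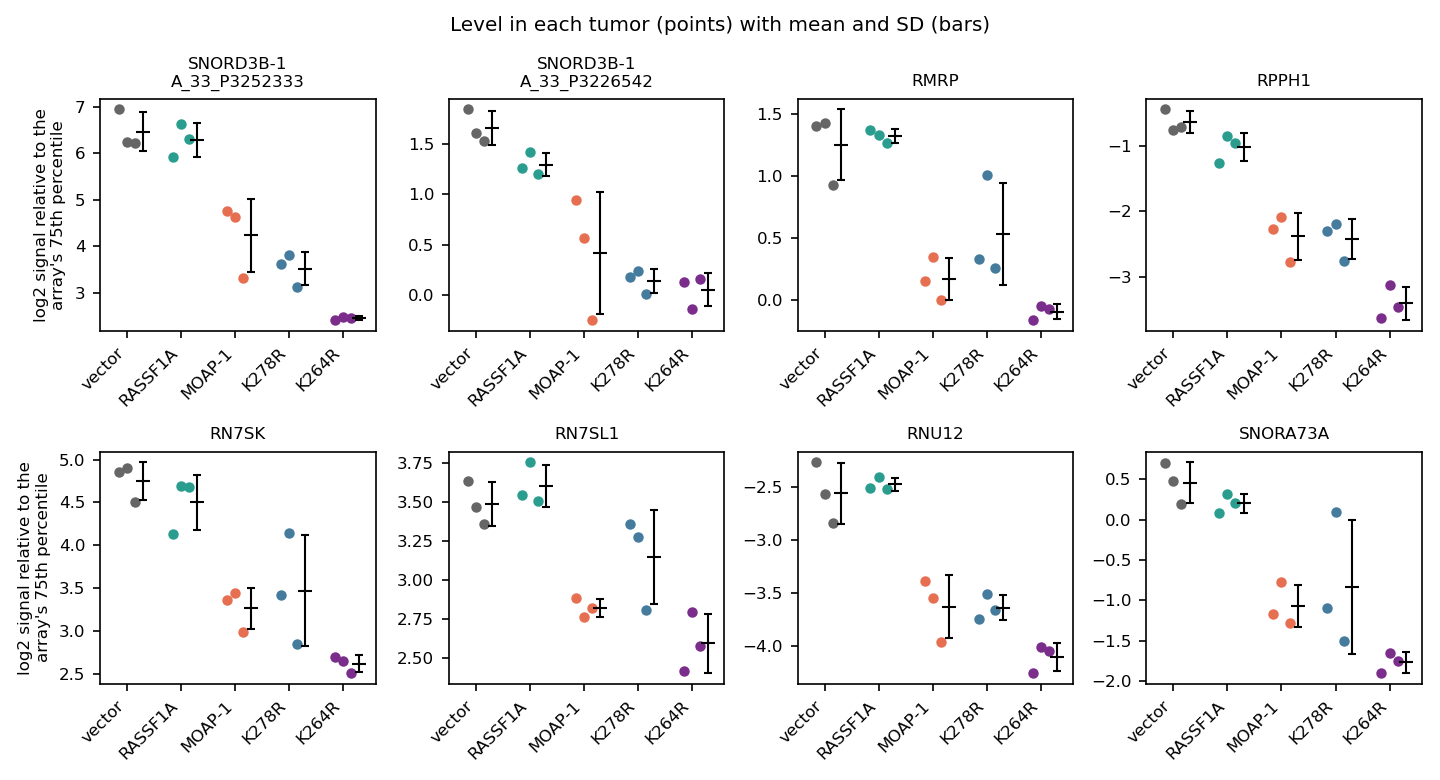
Level of 8 small RNA probes in each tumor (points, log2 signal relative to the 75th percentile of the array) with the mean and SD of 3 tumors (bars), by construct. In the 8 panels the vector and RASSF1A tumors lie high and the K264R tumors low; the SNORD3B-1 probe A_33_P3252333 falls from 6.22 to 6.95 in vector to 2.40 to 2.48 in K264R.

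U3 showed the widest spread of all members. On the SNORD3B-1 probe A_33_P3252333 (chromosome 17, an RNA of 217 bases outside any other gene) the vector tumors read 6.95, 6.24, and 6.22, and the tumors labelled RASSF1A 5.92, 6.64, and 6.31. The MOAP-1 tumors read 4.75, 4.63, and 3.32, the K278R tumors 3.62, 3.80, and 3.11, and the K264R tumors 2.40, 2.48, and 2.46. The vector and RASSF1A tumors overlapped, and all 9 tumors with a form of MOAP-1 lay below them. The second SNORD3B-1 probe, A_33_P3226542, moved the same way over a narrower range: 1.84, 1.60, and 1.52 in vector, 1.26, 1.42, and 1.20 in RASSF1A, 0.94, 0.56, and -0.25 in MOAP-1, 0.18, 0.24, and 0.01 in K278R, and 0.14, -0.13, and 0.16 in K264R.

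The comparison of MOAP-1 with RASSF1A used none of the groups that led to the choice of SNORD3B-1. Its arrays were not wholly apart from them, since MOAP-1 tumor 2 shared the K278R slide and RASSF1A tumor 3 the vector slide. With that limit both SNORD3B-1 probes were tested there. The first was lower in MOAP-1 by 4.16-fold (log2 -2.06, SE 0.33, limma adjusted p = 0.000456) and the second by 1.83-fold (log2 -0.87, SE 0.22, limma adjusted p = 0.00796), with no overlap between the tumors. Without MOAP-1 tumor 3, the lowest of its group on both probes, the second change was -0.54 and under the 1.5-fold limit, and the first was -1.60. Against vector the 2 probes were lower by 4.72-fold and 2.36-fold in MOAP-1, 7.79-fold and 2.85-fold in K278R, and 16.3-fold and 3.03-fold in K264R, given without a test. Other U3 genes, SNORD3A, SNORD3C, and SNORD3D among them, are near copies of SNORD3B-1 and had no named probe, so what share of the signal belongs to which copy is uncertain.

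In MOAP-1 against vector the study asked what MOAP-1 changes in tumors. A probe was called at a limma adjusted p below 0.05 over all 30585 kept probes and a change of at least 1.5-fold. Of the 51 members, 21 were lower and none was higher, where 6.69% of all kept probes were called lower and 9.92% higher. With the background correction normexp 2 members and 522 of all 30585 kept probes were called, and with the adjusted t-test of the methods 10 members. The all-probe count of that t-test is not given here, so the 10 has no background beside it. The 21 comprised 19 of the 34 small RNA probes, the SNORD3B-1 pair included, and 2 of the 17 host probes. The SNORD3B-1 pair is a description here, since its choice used the same vector tumors, and adds nothing to the comparison with all kept probes. All 3 MOAP-1 tumors lay below all vector tumors in 26 members (23.5% of all kept probes) and above them in 5 (25.0%). The median change was -0.64 log2 over the small RNAs and -0.10 over the hosts, beside 0.02 over all kept probes. In bulk tumors fewer cells of a type and less RNA per cell cannot be told apart.

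**Figure D2:**
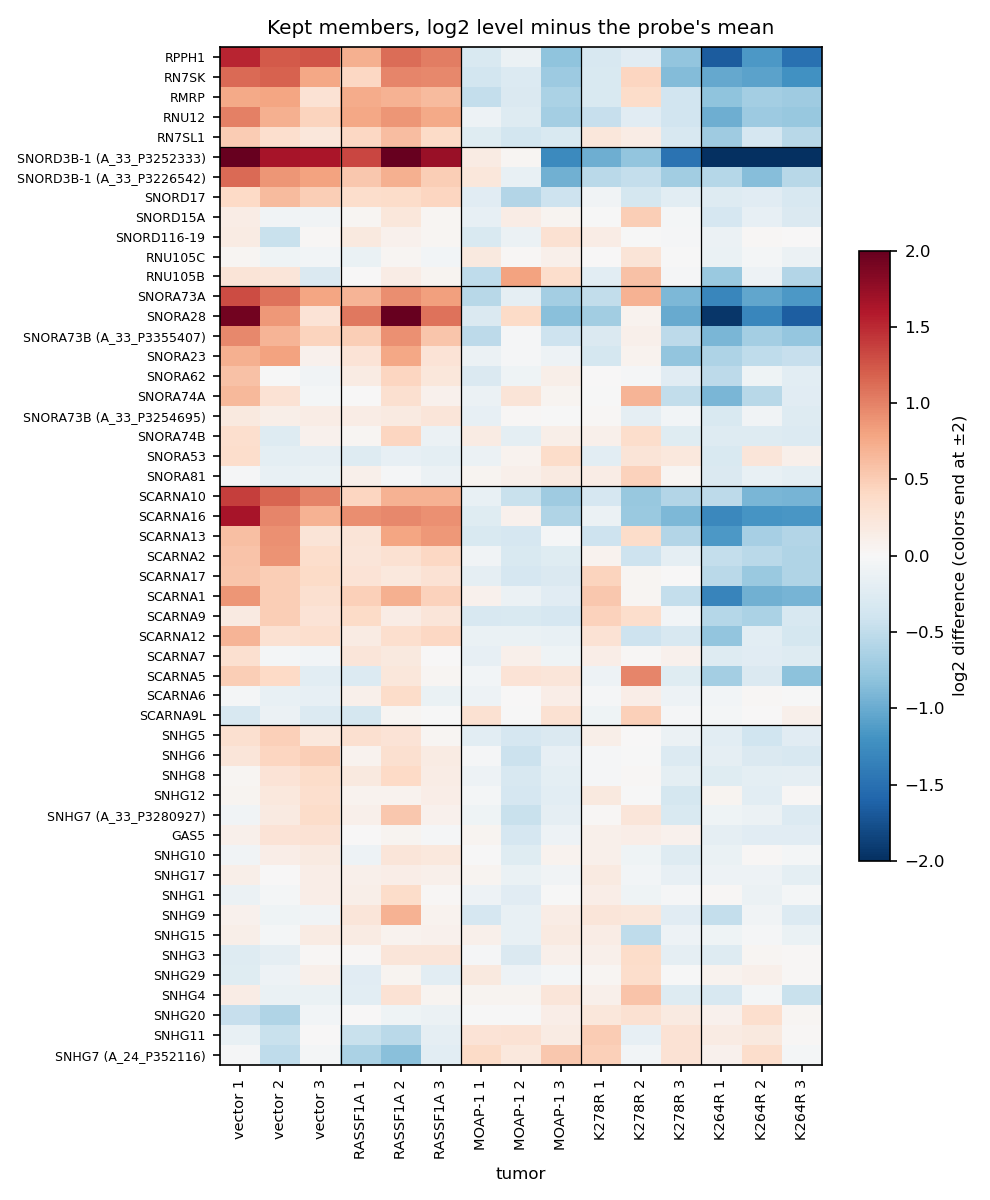
Level of the 51 kept member probes (rows, grouped by class) in 15 tumors (columns), as the log2 level minus the mean of the probe over the arrays; colors end at ±2. Most small RNA rows are high in vector and RASSF1A and low in K264R, and the 17 host rows at the bottom vary less.

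The 5 structural RNAs that are no snoRNAs all fell. RPPH1, the RNA of RNase P (chromosome 14, 341 bases), read -0.44, -0.75, and -0.71 in vector and -2.27, -2.09, and -2.78 in MOAP-1, a fall of 3.35-fold (log2 -1.74, SE 0.20, limma adjusted p = 0.000188). RN7SK (chromosome 6, 332 bases) read 4.85, 4.90, and 4.50 in vector and 3.36, 3.44, and 2.99 in MOAP-1, a fall of 2.81-fold (log2 -1.49, SE 0.26, limma adjusted p = 0.00131). Both groups were tight on these probes, and the gap between them was wider than either. RMRP (chromosome 9, 270 bases) went from 1.40, 1.43, and 0.92 to 0.16, 0.34, and 0.01, or 2.12-fold down (limma adjusted p = 0.00102). RNU12 (chromosome 22, 150 bases) went from -2.27, -2.57, and -2.85 to -3.39, -3.55, and -3.96, or 2.10-fold down (limma adjusted p = 0.000503). RN7SL1 (chromosome 14, 299 bases) changed least, from 3.63, 3.47, and 3.36 to 2.88, 2.77, and 2.82, or 1.58-fold down (limma adjusted p = 0.00477), and its change passed 1.5-fold neither after quantile normalization (-0.51) nor with the brightness of the array in the fit (-0.53). RN7SL1 has many near copies in the genome and lies within the span of RPS29 in RefSeq, so its probe may read more than 1 transcript.

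**Figure D3:**
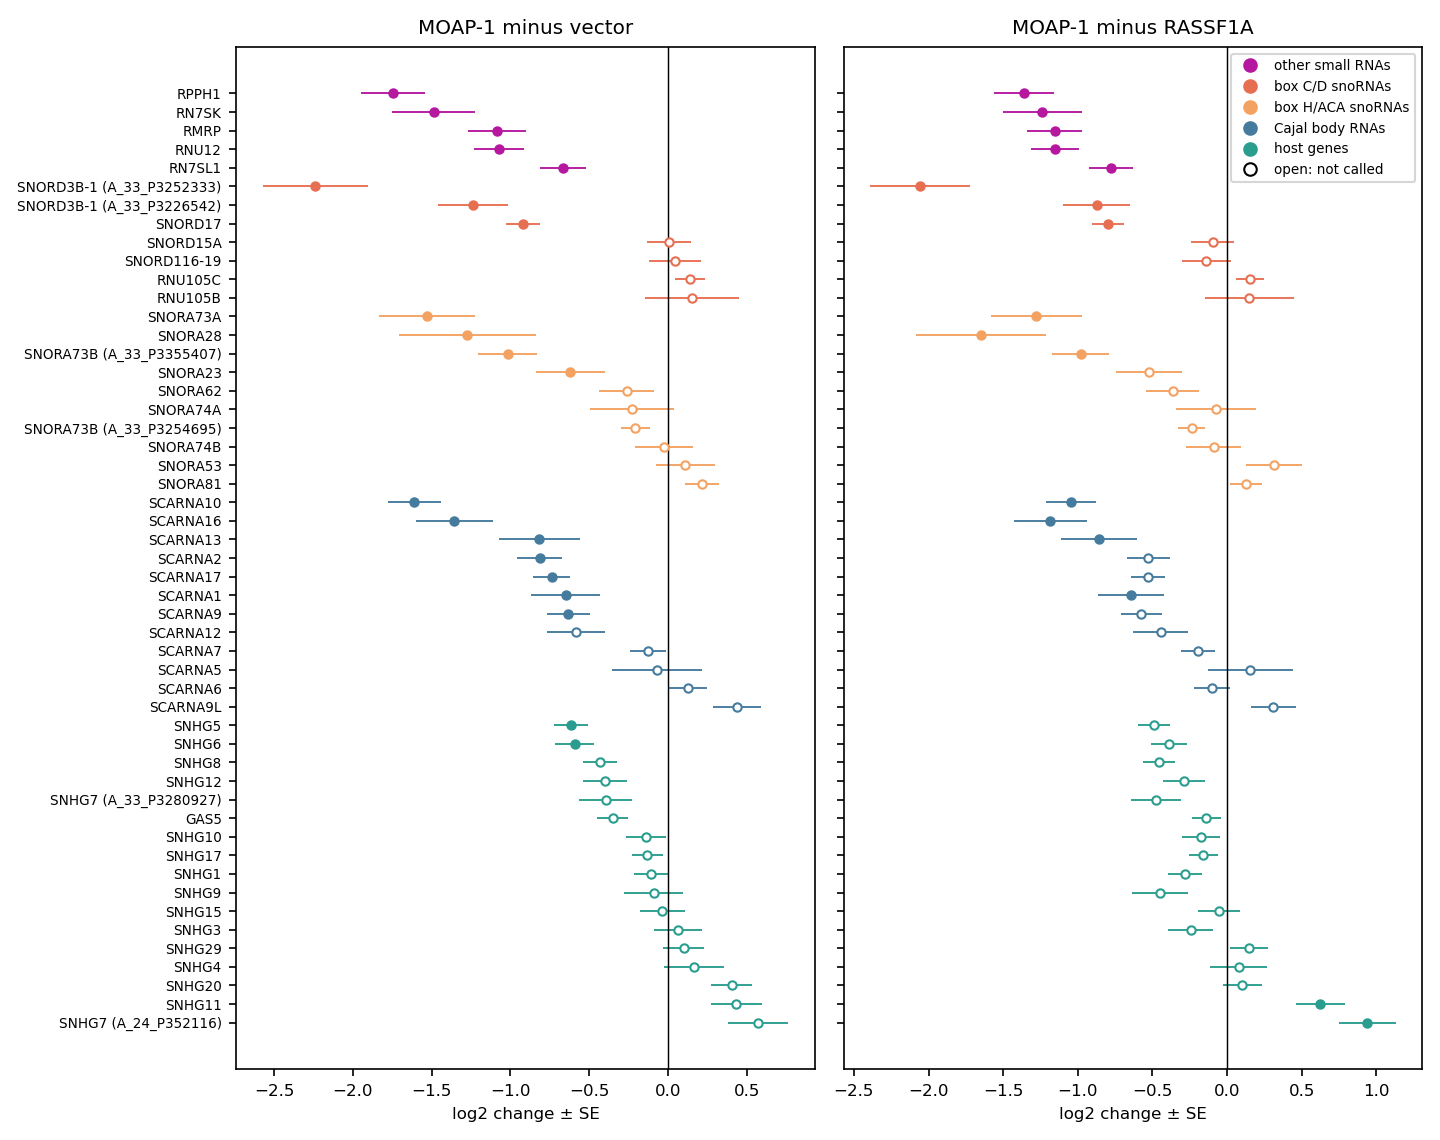
Change of each kept member probe (log2 ± SE) in MOAP-1 against vector (left) and against RASSF1A (right); filled points passed both limits of a call, and colors give the class. In the left panel the filled points are all below 0; the 2 filled SNORD3B-1 points there are a description.

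Of the 7 box C/D probes, 3 were lower: the SNORD3B-1 pair, given as a description, and SNORD17, a guide within SNX5. The other 4, SNORD15A, SNORD116-19, RNU105B, and RNU105C, lay between 0.01 and 0.15 log2. RNU105B read -1.11, -1.13, and -1.65 in vector and -1.88, -0.55, and -1.01 in MOAP-1, and RNU105C -2.20, -2.32, and -2.30 against -2.04, -2.22, and -2.14. On both the groups overlapped (limma adjusted p = 0.729 and 0.277).

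Of the 10 box H/ACA probes, 4 were lower and none was higher. SNORA73A, also known as U17a and, unlike most of its class, needed for the cleavage of ribosomal RNA, read 0.70, 0.48, and 0.19 in vector and -1.16, -0.78, and -1.28 in MOAP-1, a fall of 2.89-fold (log2 -1.53, SE 0.30, limma adjusted p = 0.00255). The pair of probes for its near copy SNORA73B disagreed: A_33_P3355407 fell by 1.02 log2 (SE 0.19, limma adjusted p = 0.00175) and A_33_P3254695 was at -0.21 (SE 0.09, limma adjusted p = 0.104). SNORA73A and SNORA73B are alike in sequence and were measured by separate probes, and how much each probe reads of the other gene was not tested. SNORA28, dim at -3.25, -4.31, and -4.90 in vector, passed both limits at -1.27 (SE 0.44, limma adjusted p = 0.0414), but its groups overlapped, since MOAP-1 tumor 2 read -4.80.

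Of the 12 Cajal body RNAs, 7 were lower and none was higher. SCARNA10 (chromosome 12, 330 bases) read -2.64, -2.86, and -3.03 in vector and -4.17, -4.47, and -4.73 in MOAP-1, a fall of 3.05-fold (log2 -1.61, SE 0.17, limma adjusted p = 0.000159). Among the members, changes larger than this were those of RPPH1 and of the stronger SNORD3B-1 probe. SCARNA6, SCARNA7, and SCARNA5, which are also Cajal body RNAs, lay between -0.12 and 0.13. SCARNA9 was called lower at -0.63, while its X-linked relative SCARNA9L was at 0.44 (limma adjusted p = 0.0457), short of 1.5-fold.

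Among the host genes the changes were small. SNHG5, which carries C/D snoRNAs and whose start is shown above, read 4.15, 4.31, and 4.04 in vector and 3.62, 3.50, and 3.54 in MOAP-1, a fall of 1.53-fold (limma adjusted p = 0.00124). SNHG6 fell by 1.51-fold (limma adjusted p = 0.00335), and 17 probes ranged from -0.62 to 0.57. GAS5, the host of many C/D snoRNAs, read 5.39, 5.56, and 5.56 in vector and 5.33, 4.95, and 5.18 in MOAP-1 and did not reach 1.5-fold (log2 -0.35, SE 0.10, limma adjusted p = 0.0177). SNHG1 did not pass the test (log2 -0.10, SE 0.11, limma adjusted p = 0.506), with 1.97, 2.05, and 2.22 in vector and 1.99, 1.86, and 2.08 in MOAP-1. The pair of SNHG7 probes went in opposite directions, 0.57 on A_24_P352116 and -0.40 on A_33_P3280927, and neither was called.

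Because an intronic snoRNA is cut from the transcript of its host, small RNA probes were set beside probes of the genes that surround them in RefSeq. Genes were matched by position alone, without regard to strand or introns, so not every pair is a host and its product. A surrounding gene was measured for 23 small RNA probes, and 11 of these were called lower in MOAP-1 against vector. Among the 11 is RN7SL1 with RPS29, although RNA polymerase III makes RN7SL1. For 9 of the 11 no surrounding gene was called. Of all kept probes 16.6% were called in either direction, so most genes of any kind were not called. For the other 2, SNORA73A and a SNORA73B probe, RCC1 was called lower (-0.59, SE 0.12, limma adjusted p = 0.00258) while SNHG3, the second gene around them, was at 0.06. SCARNA10 was at -1.61 and NCAPD2, a condensin subunit, at -0.18. SCARNA16 was at -1.36, with SNHG20 at 0.41 and SEC14L1 at -0.33. SCARNA13 was at -0.82 and its host SNHG10 at -0.14. The reverse was seen as well: SNORD15A was at 0.01 while RPS3, a ribosomal protein of the small subunit, was called higher at 1.31, and SNORA74B was at -0.02 while ATP6V0E1, a subunit of the proton pump V-ATPase, was called higher at 1.13. Surrounding genes are given at their brightest probe.

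**Figure D4:**
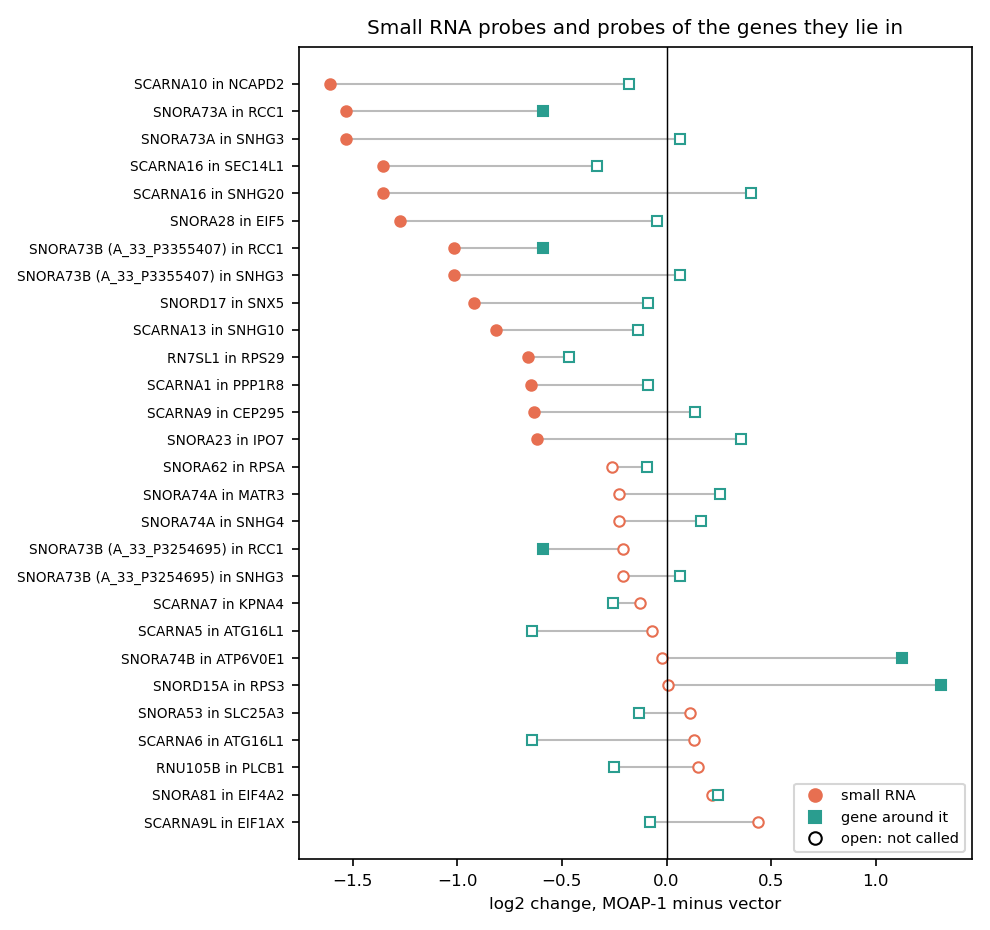
Change in MOAP-1 against vector (log2) of each small RNA probe (circles) and of the gene that surrounds it (squares), with lines joining each pair; filled symbols were called. The circles at the top run from -1.61 to -0.62 while most of their squares lie near 0, and only the RCC1 squares among them are filled.

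Against the tumors labelled RASSF1A, 15 members were lower in MOAP-1 and 2 higher, where 8.14% of all kept probes were called lower and 13.0% higher. With normexp 5 of the 51 members and 2260 of all 30585 kept probes were called. The MOAP-1 tumors lay below all RASSF1A tumors in 29 members (26.4% of all kept probes) and above them in 3 (24.6%). The 15 were all small RNAs, with a median of -0.53 over the 34 probes beside -0.01 over all kept probes. The 5 structural RNAs were again all called lower. RPPH1 read -1.25, -0.85, and -0.95 in RASSF1A and changed by -1.36 (SE 0.20, limma adjusted p = 0.000246), and RN7SK read 4.13, 4.69, and 4.68 and changed by -1.24 (SE 0.26, limma adjusted p = 0.00264). RMRP and RNU12 changed by -1.15 each and RN7SL1 by -0.78 (limma adjusted p = 0.000388, 0.00016, and 0.00118). SNORA28 changed by -1.65 (SE 0.44, limma adjusted p = 0.00961) and SNORA73A by -1.28 (SE 0.30, limma adjusted p = 0.00507).

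The 2 higher members were hosts. The SNHG7 probe A_24_P352116 read -3.04, -3.23, and -2.61 in RASSF1A and -2.01, -2.18, and -1.86 in MOAP-1, a rise of 1.92-fold (log2 0.94, SE 0.19, limma adjusted p = 0.00202). The other SNHG7 probe was at -0.48 and under 1.5-fold. SNHG11 read -1.92, -2.01, and -1.66 and rose to -1.20, -1.20, and -1.32, or 1.54-fold (limma adjusted p = 0.00856). RASSF1A tumors 1 and 2 had a slide and a scan day of their own. With RASSF1A tumor 3 alone, assumed to vary like the other groups, the median of the small RNAs was -0.56, and SNHG7 (0.59) and SNHG11 (0.42) were not called.

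No member was called between RASSF1A and vector, as no kept probe was (0%); 2 of the 51 members and 3695 of all kept probes had an unadjusted p below 0.05. The RASSF1A tumors lay below all vector tumors in 5 members (4.64% of all kept probes) and above them in none (10.1%). The median change was -0.03 over the small RNAs. SCARNA10 was at -0.56 (SE 0.17, limma adjusted p = 0.341), with the RASSF1A tumors below the vector tumors, and RPPH1 at -0.38 (SE 0.20, limma adjusted p = 0.459). RASSF1A tumor 3, on the slide of the vector tumors, gave a median of -0.07 over the small RNAs against the vector mean, and RASSF1A tumors 1 and 2 on another slide gave -0.01.

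The lysine mutants were compared with MOAP-1 and with each other. No member was called between MOAP-1 and K264R (background 0.00327%), and 16 members had an unadjusted p below 0.05, all 16 of them small RNAs, as had 3325 of all 30585 kept probes. In 22 of the 34 small RNA probes all MOAP-1 tumors lay above all K264R tumors and in none below, where 13.5% of all kept probes lay above and 5.87% below. RPPH1 read -3.63, -3.13, and -3.46 in K264R, a difference of 1.02 from MOAP-1 (SE 0.20) that did not pass the correction (limma adjusted p = 0.285). SCARNA1, well above background in 2 of the 3 K264R tumors, differed by 0.98 (SE 0.22, limma adjusted p = 0.319). With the arrays weighted by limma 9 members were called higher in MOAP-1, and without MOAP-1 tumor 3 it was 1. All-probe counts of these fits are not given here, and the 0.00327% above belongs to the main fit.

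No member was called between MOAP-1 and K278R (0%), and 6 of the 51 had an unadjusted p below 0.05, as had 2821 of all 30585 kept probes. The MOAP-1 tumors lay below all K278R tumors in 5 members (8.16% of all kept probes) and above them in none (4.84%). The median over the small RNAs was -0.01, and RPPH1 was at 0.04 (SE 0.20, limma adjusted p = 0.971). MOAP-1 tumor 2, which shared the slide of the K278R tumors, gave a median of -0.00 over the small RNAs against their mean, and MOAP-1 tumors 1 and 3 on another slide gave -0.04. Without K278R tumor 3, 1 member was called lower, and the all-probe count of that fit is not given here.

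Between the mutants, 4 members were lower in K264R than in K278R, where 0.360% of all kept probes were called lower: SCARNA1 (-1.10, SE 0.22, limma adjusted p = 0.0449), RPPH1 (-0.99, SE 0.20, limma adjusted p = 0.0468), SCARNA17 (-0.80, SE 0.12, limma adjusted p = 0.0179), and SCARNA9 (-0.76, SE 0.14, limma adjusted p = 0.0324). SCARNA17 (chromosome 18, 421 bases) read -0.03, -0.23, and -0.09 in K264R and 0.96, 0.55, and 0.52 in K278R, and SCARNA9 0.89, 0.83, and 1.14 against 1.92, 1.82, and 1.41. The K264R tumors lay below all K278R tumors in 23 members (26.7% of all kept probes) and above them in none (7.26%). SCARNA1 was well above background in 2 of the 3 K264R tumors, and with normexp its change was 0.52 and no member was called, as no kept probe was. The calls between the mutants rest on few arrays, and the K264R tumors had a slide of their own. Without K264R tumor 1, K264R tumor 3, or K278R tumor 1 none was left, without K264R tumor 2 or K278R tumor 2 it was 1, and without K278R tumor 3 it was 9. The all-probe counts of the fits with a tumor left out are not given here.

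Against vector, the contrasts that led to the choice of members, 24 members were lower in K264R and none was higher (background 10.2% lower and 9.25% higher), and 16 were lower and 1, SNHG20, higher in K278R (background 3.20% lower and 7.71% higher). These counts are a description, and with normexp they were 7 for K264R and 0 for K278R, beside 914 and 1 of all kept probes. The SNHG20 change in K278R, 0.60, was -1.15 with normexp and -0.018 with normexp after the spots of extreme local background were left out. Without vector tumor 1 or vector tumor 2 the K278R count of 17 was 11, and the all-probe counts of those fits are not given here. The median over the small RNAs was -0.90 in K264R and -0.43 in K278R, and over the hosts -0.22 and -0.10. RPPH1 changed by -2.77 and -1.78, RN7SK by -2.13 and -1.28, SNORA28, well above background in 2 of the 3 K264R tumors, by -2.66 and -1.57, SCARNA16 by -2.32 and -1.70, and SCARNA10 by -1.96 and -1.74. Over the 5 constructs, 29 of the 34 small RNA probes had their lowest mean in K264R, and 23 had their highest pair of means in vector and RASSF1A. The hosts gave 7 and 8 of 17. These orders are a description as well, and the share of all kept probes with the same orders was not counted. Of all 30585 kept probes, 20926 were lower in K264R than in K278R, 19902 lower than in MOAP-1, and 16782 lower than in vector.

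The level of the small RNAs moved with the brightness of the array. The 75th percentile of the signal before scaling was 630 to 768 in vector, 613 to 816 in RASSF1A, 798 to 1023 in MOAP-1, 496 to 1152 in K278R, and 1171 to 1400 in K264R. The median of the 34 small RNA probes, each taken relative to its own mean over the arrays, was 0.58, 0.49, and 0.26 in the vector tumors, 0.26, 0.40, and 0.34 in RASSF1A, -0.16, -0.11, and -0.19 in MOAP-1, -0.08, 0.09, and -0.28 in K278R, and -0.59, -0.52, and -0.55 in K264R. Across the 15 arrays it fell as the log2 of the 75th percentile rose (Pearson r -0.85, Spearman rho -0.88; r -0.95 without the 2 arrays farthest from the median brightness). For deviations from the construct means r was -0.82, with the widest range of brightness in K278R. In each construct the dimmest array had the highest small RNA median. The brightest array had the lowest in vector, MOAP-1, and K278R, but lay between the others in K264R and RASSF1A. In K278R the dimmest array (tumor 2, 496) had the highest small RNA median and the brightest (tumor 3, 1152) the lowest. The hosts gave r -0.51 over all arrays and -0.16 within constructs. These r describe members chosen with results known, on arrays that share slides, and carry no p. The levels were scaled to the same 75th percentile that gives the brightness, so level and brightness are not independent measures. A negative r can arise from that scaling in part, and r over all kept probes was not computed.

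With the log2 of the 75th percentile as a covariate, 14 members were called lower in MOAP-1 than in vector, all of them small RNAs, with a median of -0.53 over the small RNAs; against RASSF1A 14 were lower and 1 higher, and between the mutants none was called. The count of all kept probes called in this fit is not given here, so these member counts have no background beside them. The part of array brightness in the small RNA levels was not tested beyond this fit.

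**Figure D5:**
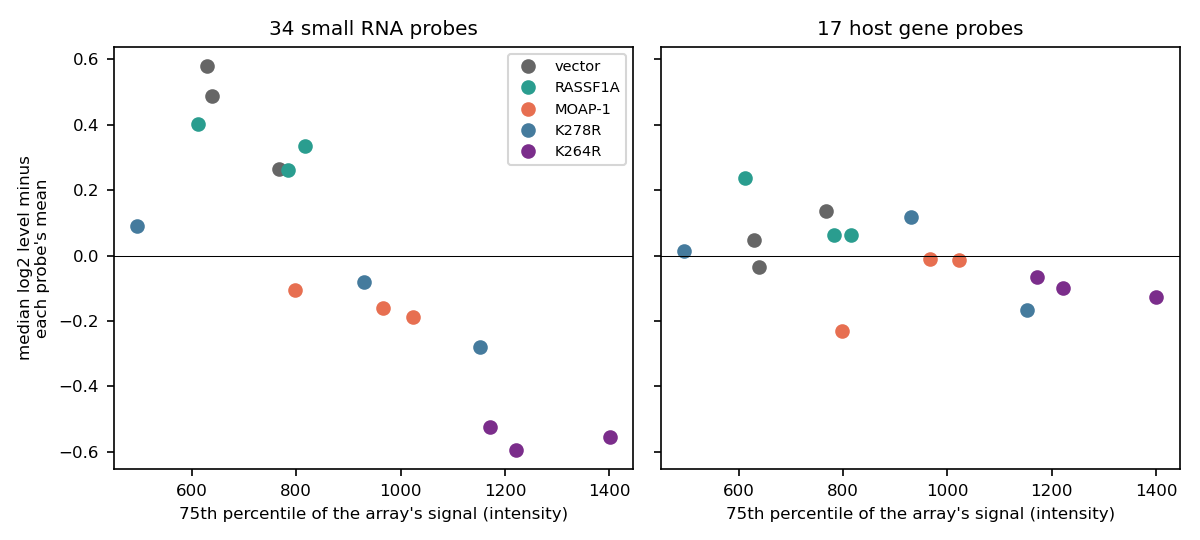
Median log2 level relative to the mean of each probe, over 34 small RNA probes (left) and 17 host gene probes (right), against the 75th percentile of the signal of the array, 1 point per tumor. Small RNA medians fall from 0.58 on a vector array to -0.59 on a K264R array as arrays get brighter, while the host medians stay between -0.23 and 0.24. Levels were scaled to the same percentile, so the axes are not independent.

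Proteins that work with these RNAs were followed at the brightest probe of each gene, from lists of known parts, and their counts stand beside the 6.69% of all kept probes called lower and the 9.92% called higher in this comparison. Of 9 RNase P and RNase MRP proteins, 2 were lower in MOAP-1 than in vector and none higher: RPP25 (-0.78, limma adjusted p = 0.00299) and RPP30 (-0.68, limma adjusted p = 0.00618). Of 8 core proteins of the snoRNPs, 1 was lower, NOP58 of the C/D particles (-0.66, limma adjusted p = 0.00129). Among 11 assembly factors RUVBL1 was higher (0.90, limma adjusted p = 0.00656) and SHQ1, a chaperone of dyskerin, lower (-0.70, limma adjusted p = 0.00107). Of 22 proteins of the U3 processome, 3 were higher and none lower, with UTP6 at 0.73 and WDR46 at 0.96 (limma adjusted p = 0.000823 and 0.0108), while the U3 probes were at -2.24 and -1.24. Of 6 proteins of the signal recognition particle, SRP54 (1.33) and SRP68 (1.23) were higher and none lower, beside RN7SL1 at -0.66. Of 7 partners of 7SK, 1 was lower, CCNT1 of P-TEFb (-0.78, limma adjusted p = 0.0111). The median of these lists lay between -0.22 and 0.16. Of 10 Cajal body and snRNP assembly genes none was called, and of 10 genes of nonsense-mediated decay, which removes many host transcripts, 1 was higher, with a median of 0.47 over the 10.

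Other snoRNA hosts changed in both directions. Of 30 protein-coding hosts, 7 were higher and 1 lower in MOAP-1 against vector, with a median of 0.01. The share called was 26.7%, beside 16.6% of all kept probes, of which 9.92% were called higher and 6.69% lower. Among 3 other non-coding hosts ZFAS1 (-0.71) and EPB41L4A-AS1 (-0.69) were lower and DANCR (0.91) higher.

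Markers of other cell types were counted beside these results. Of 5 fibroblast markers measured, COL1A1 was called higher in MOAP-1 than in vector (2.24), and their summed linear level relative to the 75th percentile ran from 1.91 to 6.71 in vector, 5.24 to 40.3 in MOAP-1, 9.61 to 37.9 in K278R, 4.20 to 18.0 in K264R, and 7.13 to 10.4 in RASSF1A. None of 7 colon epithelial markers was called, and their sum ran from 267 to 308 in vector and from 220 to 253 in MOAP-1. Of 4 leukocyte markers PTPRC was higher (0.72), and none of 4 endothelial and 3 erythroid markers was called. Host cells of these xenografts are mouse cells, while the probes were named from human RefSeq. How far such probes read mouse RNA was not tested, so these values cannot be read as host cell content. The part of these cells in the small RNA levels was not tested.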

How the data were processed

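RNA from 15 tumors, isolated on RNeasy columns and labeled as Cy3 cRNA, was hybridized to single-color Agilent 4x44K arrays, 1 tumor per array. The columns retain short RNA poorly and labeling by oligo-dT priming favors polyadenylated RNA, so the form of a small RNA that a probe reads is not known. The authors deposited Feature Extraction output, in which the processed signal is a background-corrected intensity not normalized between arrays (version 10.5.1.1 in the file headers, 9.1 in the submitters' processing notes), and GeneSpring log2 values. In 7 columns these log2 values match a different tumor of the construct named, so they served only as an alternative.

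Without control and outlier-flagged spots, log2 intensities were taken relative to the 75th percentile of their array and averaged over the spots of a probe. The fit kept a probe if each of the 3 tumors of some construct was well above background (30585 of 34127, of which 112 lacked a value on some array). Names came from RefSeq (GRCh38.p14) through the accession of the probe (25422 probes). The limma fit (version 3.58.1, R 4.3.3) took in all 15 arrays with construct as the only term and 10 residual degrees of freedom, and was checked on simulated data. A call needed a Benjamini-Hochberg adjusted p below 0.05 and 1.5-fold. Counting depth does not apply to arrays; the number of tumors limits the precision.

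Named were the U3, GAS5, SNHG1, RMRP, RPPH1, 7SK, 7SL, and RNU probes and, per comparison, called probes without overlap, at most the 4 largest rises and 4 largest falls; others named were chosen after their values were seen. The members and lists were chosen with earlier results of these data known. K264R and K278R against vector led to the choice of SNORD3B-1 and are described without tests. Alternatives were quantile normalization, normexp (offset 50) with and without 17 spots of extreme local background (over 20 median absolute deviations and over 500), 2 other filters, the authors' table, array weights, replicate, slide, and scan day as blocks, the arrays compared only, the unpaired t-test of the methods, and leaving out each array. Leaving out 3 arrays with such spots or 2 arrays of the second scan day, and the 75th percentile as a covariate, were chosen after seeing the data. No probe or snoRNA sequence was used here.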

Additional observations from a re-analysis of the deposited data

Results flagged for a closer look

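The effects of MOAP-1 and of the construct labelled RASSF1A differed by the direct contrast between them in 17 members. Among the named ones this was so for SNORD3B-1 (-2.06 and -0.87 on its probes), SNORA28 (-1.65), RPPH1 (-1.36), SNORA73A (-1.28), RN7SK (-1.24), RMRP (-1.15), RNU12 (-1.15), and RN7SL1 (-0.78), all lower in MOAP-1, and for SNHG7 on probe A_24_P352116 (0.94) and SNHG11 (0.63), higher in MOAP-1. With RASSF1A tumor 3 as the only RASSF1A tumor, SNHG7 (0.59), SNHG11 (0.42), SNORA28 (-1.33), SNORA73A (-1.28), RN7SL1 (-0.68), and the weaker SNORD3B-1 probe (-0.79) were not called, in a fit with fewer samples. The K264R and K278R tumors differed in 4 members, SCARNA1 (-1.10), RPPH1 (-0.99), SCARNA17 (-0.80), and SCARNA9 (-0.76), all lower in K264R, whose arrays were also the brightest. With 3 tumors per construct no single tumor was tested as an outlier.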

How the results depend on the processing

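The count of called members stayed at 0 in RASSF1A against vector and at 0 to 1 in MOAP-1 against K278R under the alternatives run, and moved by over 1.5 times under at least 1 of them in the other comparisons. In MOAP-1 against vector (21) they ranged from 15 (without vector tumor 2) to 22 with an array left out, and were 2 with normexp and 10 with the t-test of the methods after adjustment. In MOAP-1 against RASSF1A (17) the range was 15 to 17, with 5 under normexp and 7 both with scan day as a block and without the 2 arrays of the second scan day. MOAP-1 against K264R (0) gave 9 with array weights, 9 with the unadjusted t-test, and 0 to 1 with an array left out. K264R against vector (24) gave 21 to 25, and 7 under normexp. K278R against vector (17) gave 11 to 16, 0 under normexp, 7 with the arrays compared only, 11 and 0 with the t-test before and after adjustment, and 10 without the 3 arrays with extreme background spots. K264R against K278R (4) depended most on the setting: 0 to 9 with an array left out, 2 with quantile normalization, no filter, or scan day as a block, 9 with normexp without extreme spots, 10 with array weights, 8 with slide as a block, and 0 with normexp, the arrays compared only, the adjusted t-test, without the 3 arrays, or with the 75th percentile as a covariate. With the replicate number as a block that count was 1, and the other counts were within 1 of their value. All-probe counts for these alternatives are given here for normexp only, so the other member counts have no background beside them. Same-numbered tumors correlated at -0.25 to 0.37 in their deviations from the construct means, and the main fit did not pair them. With 3 tumors per construct this check cannot exclude a pairing. Normexp moved the median of all probes from 0.02 to -0.53 in MOAP-1 against vector, where the small RNA median was then -0.98 and 522 probes in all were called in place of 5079; without 17 extreme spots the all-probe median was -0.15 and the small RNA median -0.54. Of 42 named changes 6 were called under every alternative. Those that reversed were SCARNA1 between the mutants (0.52 under normexp) and SNHG20 in K278R against vector (-1.15 under normexp and -0.018 without the extreme spots). The causes were not tested.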

Other observations

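Replication-dependent histone mRNAs, which like most small RNAs lack a poly(A) tail, were looked at after the small RNA values had been seen. Of 63 such genes at their brightest probe, 16 were lower and 1 higher in MOAP-1 against vector (median -0.43; 6.69% of all kept probes were called lower), 24 lower and 2 higher in MOAP-1 against RASSF1A (median -0.53; 8.14%), and 32 lower and 1 higher in K264R against vector (median -0.62; 10.2%). In K278R against vector 10 were lower and none higher (median -0.27; 3.20%), and in RASSF1A against vector none was called (median 0.07). The shares of all kept probes called higher in the 4 comparisons with calls were 9.92%, 13.0%, 9.25%, and 7.71%. Between MOAP-1 and K278R none was called (median -0.11), nor between MOAP-1 and K264R (median 0.21), and 1 was lower in K264R than in K278R. The gene list came from symbols and some of its genes are near copies of each other, so their probes can share signal.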
